A study of Homo sapiens with 6 samples.

Results

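The genes coding for the proteins of the cytosolic ribosome were examined in poly(A)-selected RNA-seq of A549 cells, an established human lung adenocarcinoma line. Members were the protein-coding rows of the count table whose symbol is RPL or RPS with a number and at most one trailing letter A, X or L, together with RPSA, RPLP0, RPLP1 and RPLP2. This gave 81 rows with 80 symbols among 32192 rows, since RPL41 has 2 rows. The ribosomal proteins with other names (such as FAU and RACK1) are outside this rule and are given at the end. All cells were transiently transfected with a plasmid. The 3 APEX1-OE libraries came from cells given APEX1, the gene of the base excision repair endonuclease, in pIRES-hrGFP-1a with a FLAG tag at its 3′ end, and the 3 Ctrl libraries came from cells given a control plasmid, whose backbone the sources do not name. The sources do not say how many cells took up a plasmid, at what time after transfection the RNA was taken, or whether the 3 libraries of a group came from separate cultures, so p-values measure only the spread between these libraries, which may be technical. In whole cultures, fewer cells expressing a gene and less RNA per cell cannot be told apart.

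A ribosome is built from a small 40S subunit, which reads the message, and a large 60S subunit, which joins amino acids and releases the growing chain. Each ribosomal protein is present in about one copy per ribosome except for the acidic stalk proteins, and the cell makes the proteins in matched amounts because unused copies are degraded. Their messages are among the most abundant in growing cells, are short, and begin with a run of pyrimidines at the cap, the terminal oligopyrimidine (TOP) tract, through which mTORC1 and LARP1 control their translation. Several proteins have roles away from translation: RPL5 and RPL11 bind MDM2 with the 5S RNA when ribosome assembly fails, and RPS3 has been described as a DNA repair endonuclease.

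The tract can be read from the start of the gene. In windows of 30 bases around the RefSeq start (GRCh38.p14; 12 bases before the start and 18 from it on), shown here for genes of high level, for RPS24 and RPS6, and for the diverged paralog RPS27L, capitals mark the first run that begins with C and goes on with at least 4 bases that are each C or T, beginning within 5 bases of the start on the transcribed strand.
RPS16, chr19:39435932-39435961, minus strand: gcccctagCTTTCCTTTTCCggttgcggcg
RPL13A, chr19:49487596-49487625, plus strand: caaaacctCCTCCTTTTCCaagcggctgcc
RPLP1, chr15:69452806-69452835, plus strand: taggcgcgagagCCCCTTTCCTCagctgcc
RPSA, chr3:39406708-39406737, plus strand: cctgccgcctgtCTTTTCCgtgctacctgc
RPLP0, chr12:120201094-120201123, minus strand: cgggcgcgaggCCCTTCTCTCgccaggcgt
RPS24, chr10:78033851-78033880, plus strand: cgaatcgtggttCTCTTTTCCTCCTTggct
RPS6, chr9:19380219-19380248, minus strand: cggaagttggCCCTCTTTTCCgtggcgcct
RPS27L, chr15:63157460-63157489, minus strand: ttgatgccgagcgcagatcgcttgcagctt
A start was matched for 63 of the symbols tested, and such a run was found at 53 of these genes (84.1%), compared with 25.2% of 27305 genes with a start. At exactly the annotated start it was found in 73.0% of the ribosomal protein genes and in 5.14% of all genes. The mitochondrial ribosomal proteins, whose messages are translated in the cytosol but do not carry the tract as a class, had the run near the start in 23.2% of 69 genes. The 10 members with a start but without the run were RPL6, RPL9, RPL15, RPL17, RPL27, RPS4X, RPS15, RPS26, RPS27L and RPS29. A match is a description of letters and not evidence of control.

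Counts on genes ran from 28131955 to 41009197 per library. APEX1 itself was checked first. Its level was 618, 680 and 768 FPKM in the APEX1-OE libraries and 129, 126 and 124 FPKM in Ctrl. The groups were well apart (log2 fold change 2.42 ± 0.17 SE, edgeR quasi-likelihood test, adjusted p = 0.00809), and reads from the plasmid and from the native gene cannot be told apart in this count. APEX1 was the single gene called among 16971 tested, and its adjusted p missed the threshold when the second or the third APEX1-OE library (0.118 and 0.0674) or the first or the second Ctrl library (0.21 and 0.207) was left out, with log2 fold changes of 2.4 to 2.46. The epithelial keratins KRT8 and KRT18 were high in every library (2011 to 3562 FPKM), as the label of an epithelial line has it. EPCAM, in contrast, did not pass 0.52 FPKM. PTPRC, CD3E and VWF, markers of blood and endothelial cells, were at or near 0. COL1A1, a collagen gene that also served as a marker of other cells, was at 0.5 to 0.73 FPKM. The libraries did not divide by plasmid in the first principal component, which held 72.6% of the variance of log2 CPM (counts scaled to the TMM-adjusted library size). One side held APEX1-OE replicate 1 with Ctrl replicates 1 and 2, and the other held APEX1-OE replicates 2 and 3 with Ctrl replicate 3. These are groups of libraries seen in the data and not groups of the study, and they are called the first and the second side below. The sources name no batch that matches them. Every library of the first side had fewer counts (28131955 to 34398771) than every library of the second (35234411 to 41009197). The TMM factors were 0.909 to 0.958 on the first side and 1.036 to 1.097 on the second. The part of depth in the sides was not tested.

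Ribosomal protein genes were among the most abundant of these cells. In total they took 11.4%, 9.57% and 9.65% of all counts in the APEX1-OE libraries and 11.7%, 11.5% and 10.1% in Ctrl. Mean FPKM was above 1000 for 20 of the 79 members that passed the low-count filter, between 100 and 1000 for 51, between 10 and 100 for 7 and below 10 for 1, with a median of 490 FPKM. These were 32 genes of the small and 47 of the large subunit.

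**Figure D1:**
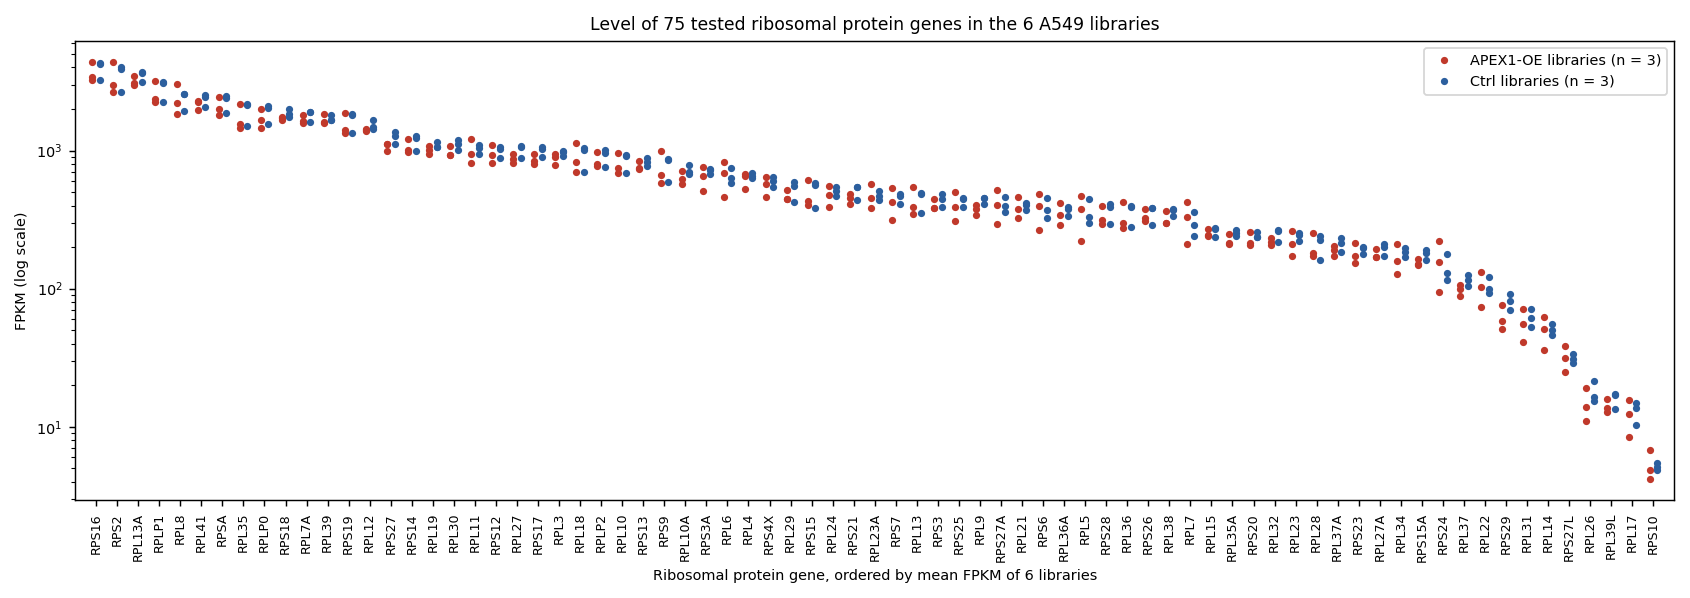
Level of 75 of the 79 tested ribosomal protein genes in FPKM (vertical axis, log scale), ordered by mean; each point is 1 library, red for APEX1-OE and blue for Ctrl. Levels run from 3816 FPKM for RPS16 to 5.2 FPKM for RPS10, and the colours overlap for most genes.

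RPS16, a protein of the small-subunit head, had the highest level: 4407, 3433 and 3225 FPKM in APEX1-OE and 4311, 4270 and 3248 FPKM in Ctrl. It was followed by RPS2, which lies at the message entry side of the small subunit, with 4369, 3005 and 2642 FPKM in APEX1-OE and 4058, 3929 and 2645 FPKM in Ctrl. In both genes APEX1-OE replicate 1 was the highest library and the other two APEX1-OE libraries lay beside Ctrl replicate 3, so that the groups overlapped. The difference between the genes (3816 ± 569 against 3441 ± 767 FPKM, SD, n = 6) was smaller than their spread over libraries. RPL13A, which is also known for silencing inflammatory messages once released from the ribosome, stood at 3326 ± 318 FPKM (SD, n = 6), RPLP1 at 2708 ± 479, RPL8 at 2354 ± 457, RPL41 at 2252 ± 217, RPSA at 2174 ± 316, RPL35 at 1836 ± 358 and RPLP0 at 1802 ± 277. From RPL8 to RPSA neighbours in this order differed by less than their SD.

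Order among the members depends on the length a level is divided by. The length implied by the deposited counts and FPKM was 25.4 times the canonical transcript of GENCODE v44 for RPS29, 5.51 times for RPS24, 5.22 times for RPS20 and 4.17 times for RPL31, whereas in 77.6% of 678 genes with 1 transcript it was within 5%. RPS29, a zinc-binding protein of the small-subunit head, was therefore number 72 by FPKM (mean 71.5 FPKM) and number 18 by CPM per kilobase of coding sequence. RPL37 moved from number 70 to 20 by the same change. RPL41, with a coding sequence of 75 bases the shortest member, came first per kilobase of coding sequence, before RPLP1, RPS19 and RPL13A. Reads outside the coding sequence can raise this measure where the transcript is much longer, as in RPL41 (canonical transcript of 676 bases). Comparisons of a single gene between libraries are not touched by this, since the same length holds in every library. Sums of FPKM over genes do depend on the lengths, which set the weight of each gene.

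The lowest levels in FPKM were those of RPS10, RPL17, RPL39L, RPL26 and RPS27L, and for RPS10 and RPL26 a longer overlapping row on the same strand held far more counts. RPS10, which is mutated in Diamond-Blackfan anaemia, had only 241, 202 and 200 counts in APEX1-OE and 170, 228 and 215 in Ctrl. The overlapping RPS10-NUDT3 read-through row had 28350 to 40998 counts. Likewise RPL26, a protein near the exit of the peptide tunnel, had 639, 1105 and 1290 counts in APEX1-OE and 892, 1038 and 1549 in Ctrl, compared with 11330 to 26031 for the overlapping protein-coding row RP11-849F2.7. RPL17 had 367 to 810 counts, and its overlapping read-through row RPL17-C18orf32 had 2 to 5. The sources used here do not say how reads in shared exons were divided between rows, so levels of RPS10, RPL26 and RPL17 are uncertain. RPL39L and RPS27L are paralogs: RPL39L, the testis-enriched copy of RPL39, was at 15.1 ± 1.93 FPKM (SD, n = 6) beside 1701 ± 108 for RPL39, and RPS27L, a close copy of RPS27, was at 31.3 ± 4.47 FPKM beside 1163 ± 139 for RPS27. The gap between RPS27L and RPS27 depends on length, since the implied lengths were 7938 and 714 bases. Per kilobase of coding sequence RPS27L had 1204 CPM (number 62) beside 4070 for RPS27, and RPL39L had 129 CPM beside 5482 for RPL39. Both RPS27L and RPS27 have 252 coding bases, but their canonical transcripts have 6110 and 352 bases. Reads outside the coding sequence can therefore raise RPS27L on this measure.

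RPL3L and a second row of RPL41 did not pass the filter. RPL3L, the striated-muscle form of RPL3, had 2, 2 and 0 counts in APEX1-OE and 1, 1 and 2 in Ctrl, while RPL3 stood at 919 ± 74.1 FPKM (SD, n = 6). The RPL41 row at chr7:137513859-137513933, a processed pseudogene in GENCODE v44, had 4, 1 and 5 counts in APEX1-OE and 6, 0 and 4 in Ctrl. RPL10L, the testis copy of RPL10, had no row. Copies elsewhere in the genome took few reads: 265 pseudogene rows carried the name of 60 of the 80 symbols, at most 29 rows for RPL23A, and held between 0.0188% and 0.0278% of all counts per library. RPS2 had the largest share on such rows, 3.21% of its counts and theirs together, followed by RPL23A with 1.94% and RPL39 with 1.03%.

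To ask whether the ribosomal protein genes differed between cells with the APEX1 and the control plasmid, counts were tested with edgeR over all genes. None of the 79 members was called, compared with 0.00589% of all tested genes, and none had an unadjusted p under 0.05, compared with 0.695% of all genes; limma-voom and DESeq2 called none either. The smallest unadjusted p among members, 0.167 for RPL9, went with an adjusted p of 1.0. This fit has no term for the sides, so differences along them are part of its spread between libraries. An unadjusted p under 0.05 was rare over all genes in this fit, so its absence among the members says little about them. The log2 fold changes of the members were small and mostly on one side of 0. The median log2 fold change was -0.12, a ratio of 0.919, and 4 of 79 members (5.06%) had a value above 0, compared with 57.5% of all tested genes, whose median was 0.03. The members shared this leaning in part with other abundant genes: of 269 other tested genes at or above the 10th percentile of the members' log2 CPM, 43.1% had a value above 0, with a median of -0.02. The count of 4 was 9, 17 and 20 without APEX1-OE replicates 1, 2 and 3 and 14, 14 and 8 without Ctrl replicates 1, 2 and 3. Small and large subunit did not part, with medians of -0.11 (2 of 32 above 0) and -0.12 (2 of 47 above 0).

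**Figure D2:**
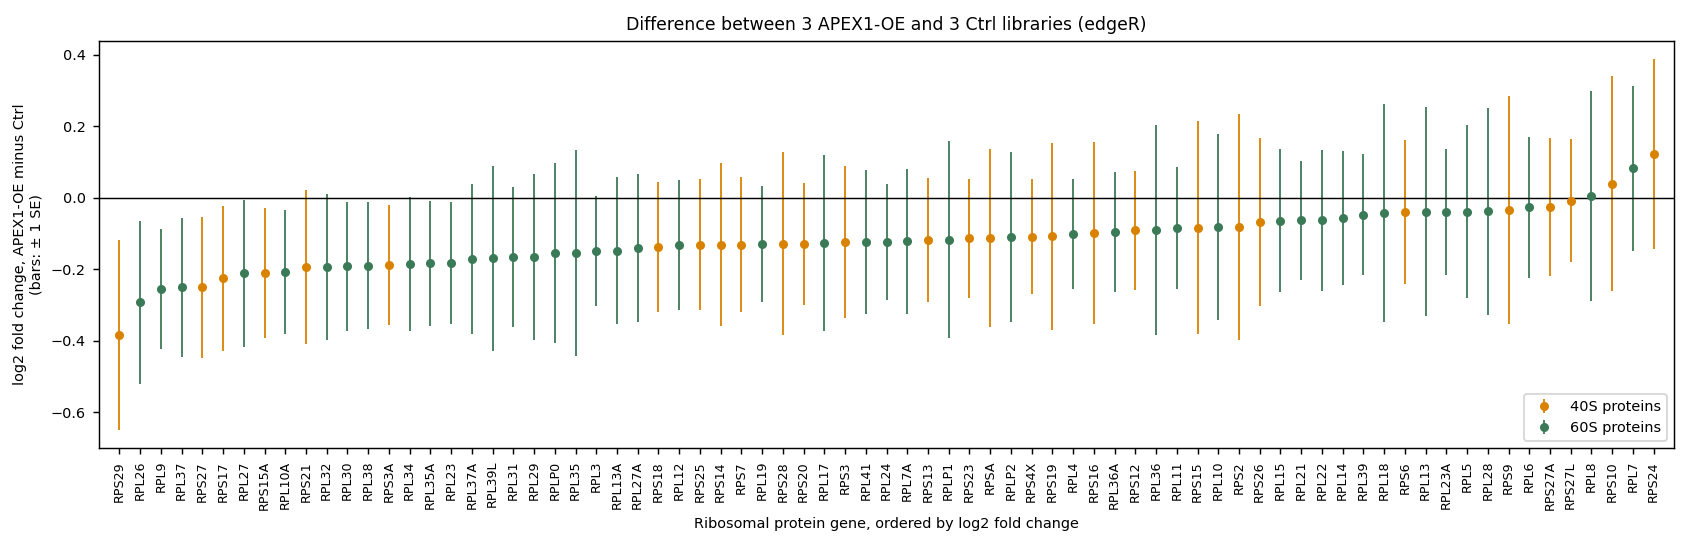
log2 fold change of 75 of the 79 tested ribosomal protein genes, APEX1-OE minus Ctrl, with bars of 1 SE from edgeR (3 libraries per group), ordered by value; orange marks 40S and green 60S proteins. Values run from -0.38 for RPS29 to 0.12 for RPS24 and none differs from 0 by the test.

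RPS29 had the most negative value. It was at 76.8, 51.3 and 58.0 FPKM in APEX1-OE and at 81.8, 91.6 and 69.7 FPKM in Ctrl. The highest APEX1-OE library lay above the lowest Ctrl library, and the log2 fold change of -0.38 ± 0.27 (SE) did not pass the test (adjusted p = 1.0). RPL26, with the caveat above, followed with -0.29 ± 0.23. RPL9, a protein of the large subunit near the base of its stalk, was at 342, 375 and 402 FPKM in APEX1-OE and at 451, 450 and 413 FPKM in Ctrl, with all APEX1-OE libraries below all Ctrl libraries (log2 fold change -0.26 ± 0.17 SE). RPL37 (-0.25 ± 0.20) and RPS27 (-0.25 ± 0.20), both zinc-finger proteins, came next.

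Above 0 were RPS24 (0.12 ± 0.27), RPL7 (0.08 ± 0.23), RPS10 (0.04 ± 0.30) and RPL8 (0.0043 ± 0.29). The value of RPS10 has the caveat above, and its overlapping row RPS10-NUDT3 had the other sign (-0.165 ± 0.265 SE). RPS24, which is also mutated in Diamond-Blackfan anaemia, was at 95.4, 156 and 222 FPKM in APEX1-OE and at 130, 115 and 179 FPKM in Ctrl. Its lowest and its highest library were both APEX1-OE. This spread of 2.32 times was the widest in FPKM among the tested members, beside a median of 1.41 times and the least spread of 1.17 times for RPL39.

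In 4 members, every APEX1-OE library was below every Ctrl library in CPM (RPL3, RPL4 and RPL9 among them; 2.01% of all tested genes did so), and in none was every APEX1-OE library above (1.38% of all tested genes). RPL3, which lies close to the peptidyl transferase centre, was at 783, 903 and 950 FPKM in APEX1-OE and at 973, 919 and 988 FPKM in Ctrl (log2 fold change -0.15 ± 0.15 SE). RPL4, whose loop lines the exit tunnel, was at 531, 654 and 679 FPKM in APEX1-OE and at 657, 629 and 683 FPKM in Ctrl. The groups of RPL3 and RPL4 overlapped in FPKM and were apart only in TMM-scaled CPM, while those of RPL9 were apart in both.

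Members with roles beyond the ribosome had values within this narrow range. RPL5 was at 221, 377 and 470 FPKM in APEX1-OE and at 328, 298 and 444 FPKM in Ctrl (log2 fold change -0.04 ± 0.24 SE), and its partner RPL11 was at 816, 947 and 1207 FPKM in APEX1-OE and at 1039, 952 and 1103 FPKM in Ctrl (-0.09 ± 0.17). In both genes the APEX1-OE libraries reached below and above those of Ctrl. RPL23, which also binds MDM2, had -0.18 ± 0.17 and RPS26 -0.07 ± 0.23. RPS3 was at 447, 386 and 384 FPKM in APEX1-OE and at 484, 447 and 388 FPKM in Ctrl (-0.12 ± 0.21). RPS6, the substrate of S6 kinase, had -0.04 ± 0.20, RPS27A, made as a fusion with ubiquitin, -0.02 ± 0.19, and RPSA, the laminin receptor precursor, -0.11 ± 0.25.

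The Diamond-Blackfan gene RPS19 had -0.11 ± 0.26, RPS14, lost in the myelodysplastic syndrome with 5q deletion, -0.13 ± 0.23, and RPL10, mutated in T-cell leukaemia, -0.08 ± 0.26. The stalk proteins RPLP0, RPLP1 and RPLP2, which recruit the translational GTPases, had -0.16 ± 0.25, -0.12 ± 0.28 and -0.11 ± 0.24. Of the other members with high levels, RPL13A had -0.15 ± 0.21, RPL35 -0.16 ± 0.29, RPS16 -0.10 ± 0.26 and RPL41 -0.12 ± 0.20. The paralogs RPL39L (-0.17 ± 0.26) and RPS27L (-0.01 ± 0.17) had an adjusted p of 1.0, as had RPL39 (-0.05 ± 0.17). All errors here are SE of edgeR's log2 fold change, and every adjusted p was 1.0.

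The larger differences among libraries ran along the sides. In 48 of 79 members every library of the first side was above every library of the second (30.9% of all tested genes), in 4 it was below (35.5% of all tested genes), and in 27 the sides overlapped. The sides come from these same counts, so no test was made. The 4 members below were RPL5, RPL6, RPL7 and RPS24. The median difference in log2 CPM between first and second side was 0.32, and the lowest was -0.52, in RPS24. At the upper end RPS2 had 0.76 and RPS9 0.75. RPS9, a protein of the small subunit at the message entry, was at 997, 851 and 874 FPKM on the first side and at 667, 586 and 590 FPKM on the second. RPS2, RPS9 and RPL8 were among the 5 members with the widest range of log2 CPM over the libraries (1.01 to 1.05).

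Across the members the side difference rose with the GC content of the coding sequence, though not in each gene. RPL39L (44.4% GC) and RPL27 (49.3%), for example, were higher on the first side by 0.51 and 0.44. The coding sequences of 2 members with positive and 3 with negative side differences are shown by their first 60 bases (GENCODE v44, GRCh38, exons joined). G and C are in capitals. The upper 2 were higher on the first side and the lower 3 higher on the second on average.
RPS2, gene at chr16:1962058-1964841, minus strand: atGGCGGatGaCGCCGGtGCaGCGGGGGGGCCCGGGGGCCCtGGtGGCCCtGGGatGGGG
RPS15, gene at chr19:1438358-1440495, plus strand: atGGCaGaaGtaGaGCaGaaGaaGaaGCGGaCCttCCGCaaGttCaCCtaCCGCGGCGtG
RPS24, gene at chr10:78033760-78056813, plus strand: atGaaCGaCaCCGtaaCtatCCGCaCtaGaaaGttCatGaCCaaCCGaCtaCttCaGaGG
RPL5, gene at chr1:92832013-92841924, plus strand: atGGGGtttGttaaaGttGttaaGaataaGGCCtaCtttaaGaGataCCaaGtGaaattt
RPS6, gene at chr9:19375715-19380236, minus strand: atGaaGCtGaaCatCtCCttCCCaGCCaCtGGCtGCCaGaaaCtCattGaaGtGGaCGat
In these bases RPS2 had 48 of 60 G or C and RPS15 had 34, compared with 28 in RPS24, 19 in RPL5 and 30 in RPS6. Over the whole coding sequence G and C made up 61.8% in RPS2 and 63.0% in RPS15, compared with 43.8% in RPS24, 44.3% in RPL5 and 47.3% in RPS6. Across the 79 members, the coding GC content and the side difference had a Pearson's r of 0.81 and a Spearman's rho of 0.82. The points share the same 6 libraries, so this is a description. Among the 13575 tested genes with a coding sequence r was 0.76.

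**Figure D3:**
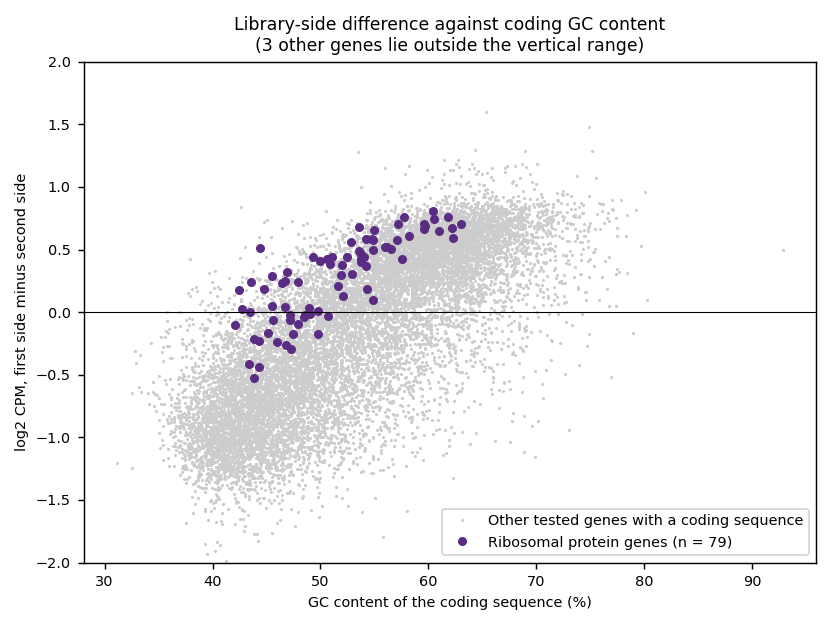
Difference in mean log2 CPM between the first and the second side of libraries (vertical axis) against the GC content of the coding sequence (horizontal axis, %); purple points are the 79 ribosomal protein genes and grey points the other tested genes with a coding sequence. Purple points rise with GC content, from RPS24 (43.8%, -0.52) to RPS2 (61.8%, 0.76) for example, and lie in the upper part of the grey points at low GC content; 3 grey points lie outside the range shown.

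Of the 40 members with coding GC content at or above their median of 51.1%, 37 (92.5%) were higher in every library of the first side and 0 lower, compared with 50.1% higher and 17.1% lower among other genes of their GC range, and 78.3% and 9.04% among those as highly counted. Of the 39 below it, 11 (28.2%) were higher, 4 (10.3%) were lower and 24 overlapped, compared with 4.95% higher and 70.0% lower among other genes of their GC range, and 27.1% and 40.7% among those as highly counted. These differences between members and other genes were not tested. In the range of the latter (42.1% to 50.9% GC) the members had a median side difference of -0.02, compared with -0.59 for 4158 other genes of that GC content, -0.27 for the 795 among them of like coding length (252 to 793 bases) and -0.05 for the 59 as highly counted as the members. In the upper range (51.1% to 63.0% GC) the medians were 0.54 for members, 0.27 for 5478 other genes, 0.40 for the 1200 among them of like coding length and 0.44 for the 166 as highly counted. The part of level, length and composition in this was not tested.

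**Figure D4:**
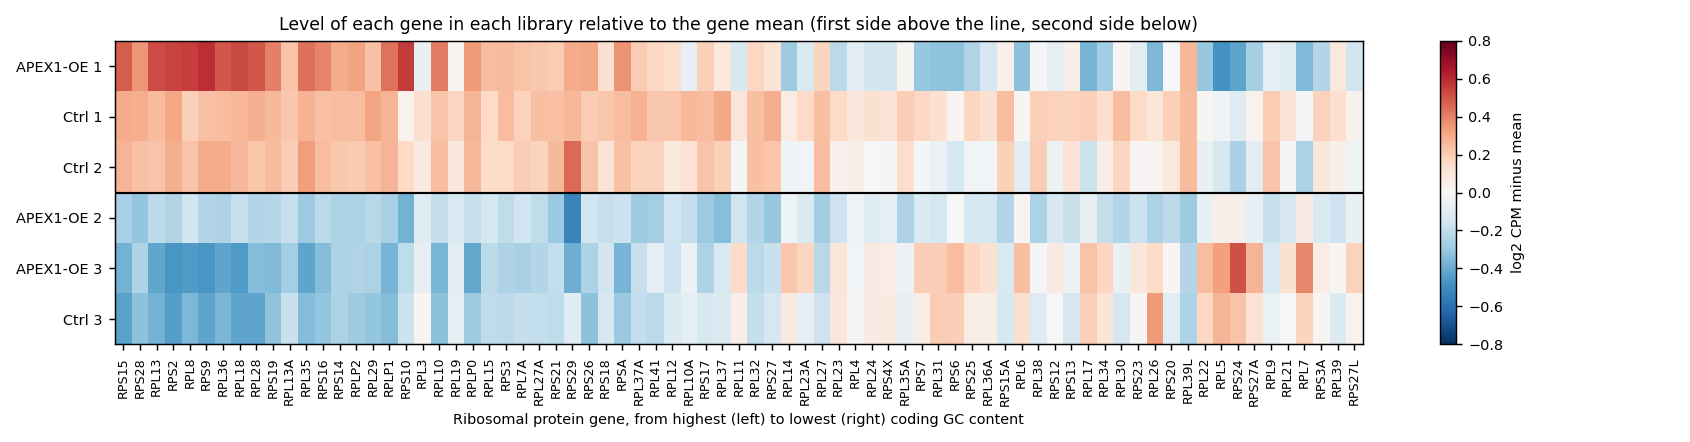
log2 CPM of 75 of the 79 tested ribosomal protein genes (columns, from the highest coding GC content on the left to the lowest on the right) in each library (rows, the first side above the line), minus the mean of the gene; red is above and blue below the mean. The left part is red in the 3 upper rows and blue in the 3 lower ones, and many genes of the right part show the opposite in APEX1-OE replicates 1 and 3.

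The share of counts followed the sides too. Members took 11.5% ± 0.176 of all counts in the 3 libraries of the first side and 9.76% ± 0.265 in the 3 of the second (SD), while the groups of the study had 10.2% ± 1.03 in APEX1-OE and 11.1% ± 0.891 in Ctrl (SD, n = 3). The difference between the plasmids, -0.87 percentage points, was within 1 SD of the libraries (0.965) with all libraries in, but not without APEX1-OE replicate 1 (-1.47) or Ctrl replicate 3 (-1.38). Without Ctrl replicate 1, APEX1-OE replicate 2 or APEX1-OE replicate 3 it was -0.551, -0.554 and -0.599. In summed FPKM the share differed by -1.0 percentage points, with an SD of 0.628. Members of higher GC content took 9.02%, 6.92% and 6.55% of counts in APEX1-OE and 8.77%, 8.68% and 6.98% in Ctrl. Members of lower GC content took 2.37%, 2.65% and 3.10% in APEX1-OE and 2.96%, 2.77% and 3.08% in Ctrl. In the former group APEX1-OE replicate 1 was the highest of all libraries, and in the latter it was the lowest.

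**Figure D5:**
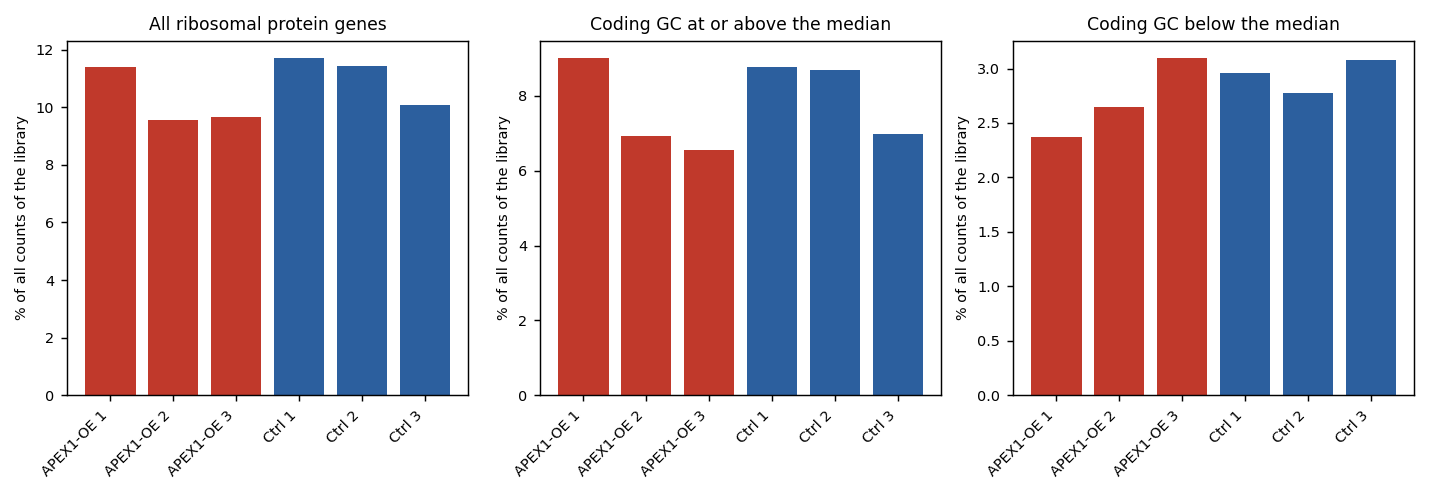
Percent of all counts of a library that fell on ribosomal protein genes: all 81 rows (left), members with coding GC content at or above the median (middle) and below it (right); each bar is 1 library, red for APEX1-OE and blue for Ctrl, and the axes start at 0. APEX1-OE 1, Ctrl 1 and Ctrl 2 are the 3 highest bars on the left and in the middle, but not on the right.

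The balance of the subunits was steady. The summed FPKM of the large subunit over that of the small subunit was 1.22, 1.28 and 1.31 in APEX1-OE and 1.24, 1.25 and 1.31 in Ctrl, with means of 1.27 ± 0.0462 and 1.27 ± 0.0358 (SD, n = 3). The ratio was 1.24 ± 0.0155 on the first side and 1.30 ± 0.0135 on the second.

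Since the plasmid and the sides are partly mixed, each side was also read alone. APEX1-OE replicate 1 had a median difference from Ctrl replicates 1 and 2 of -0.07 in log2 CPM over the members, with 29 of 79 above 0, compared with 48.6% of all tested genes. Of those with higher GC content 28 of 40 were above 0, and of those with lower GC content 1 of 39. APEX1-OE replicates 2 and 3 had a median difference from Ctrl replicate 3 of -0.02, with 31 of 79 above 0, compared with 62.2% of all tested genes. On both sides 40 of 79 members (50.6%) were below 0, compared with 22.3% of all tested genes. With a single library on one arm of each side, these values have no replicate check.

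Adding the side as a term to the edgeR fit, 29 of 79 members had a log2 fold change above 0 and none was called (0.0236% of all tested genes were), while 12 had an unadjusted p under 0.05 (15.2%, compared with 11.6% of all tested genes). The sides were taken from the same counts, so these p-values are descriptive. The smallest unadjusted edgeR p was 0.00495 for RPL26 (log2 fold change -0.40, adjusted p = 0.356), followed by 0.026 for RPL31, a protein at the tunnel exit (-0.26, adjusted p = 0.382). Both were below 0 on either side alone, RPL26 by -0.41 and -0.39 and RPL31 by -0.36 and -0.17. The caveat on reads in shared exons holds for RPL26 here too. Its overlapping row RP11-849F2.7, with 11330 to 26031 counts, had a log2 fold change of -0.10 ± 0.22 (SE) in the fit without the side. Of the 12, RPL5, RPL9, RPL23, RPL34 and RPS29 were also negative, while RPL8, RPL28 and RPS9 were positive and had a coding GC content of 59.6% or more, above that of each negative one. When each count was corrected for coding GC content and length, 14 of 79 members had a value above 0 with a median of -0.08, and with the side added 39 of 79, with a median of -0.0046. No setting called a member.

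The lists of related genes gave no call, compared with 0.00589% of all tested genes. Over all tested genes 57.5% had a log2 fold change above 0, with a median of 0.03, which is the background for the counts below. FAU and RACK1 (under its older symbol GNB2L1), ribosomal proteins outside the rule, had log2 fold changes of -0.10 ± 0.32 and -0.10 ± 0.21 (SE). Both were higher in every library of the first side. The paralogs RPL7L1, RPL22L1, RPL26L1 and RPL36AL had a median of 0.02, with RPL26L1 at -0.17 ± 0.20 and RPL36AL at 0.09 ± 0.22. Of 16 other genes with TOP messages, mostly translation factors, 7 were above 0 with a median of -0.02, and EIF3E (0.28 ± 0.41), the nucleolar chaperone NPM1 (0.23 ± 0.33) and NAP1L1 (0.19 ± 0.35) were farthest from 0.

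Ribosome assembly factors leaned the other way from the members. Of 34, 29 had a value above 0 with a median of 0.10, compared with 57.5% of all tested genes. In 19 of the 34 every library of the first side was below every library of the second (35.5% of all tested genes), and in 9 it was above (30.9%). NOP58, a core protein of box C/D snoRNPs, the 60S export adaptor NMD3 and the 40S assembly factor LTV1 had 0.55 ± 0.39, 0.49 ± 0.38 and 0.47 ± 0.39. None passed the test, and these 3 genes have a coding GC content of 39.7% to 41.3% and were lower on the first side by 1.08, 1.02 and 0.96 in log2 CPM. Of 13 genes of mTORC1, LARP1 and MYC, 10 were above 0 with a median of 0.08 (RPS6KB1 0.35 ± 0.45, EIF4E 0.19 ± 0.33, TSC1 0.18 ± 0.36). Of 78 mitochondrial ribosomal proteins, which form the separate ribosome of mitochondria, 25 were above 0 with a median of -0.03, and MRPL42 (0.27 ± 0.31), MRPL1 (0.25 ± 0.42) and MRPL19 (0.19 ± 0.38) were farthest from 0. The part of the sides in these lists was not tested.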

How the data were processed

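RNA-seq counts and FPKM of 6 A549 libraries (3 APEX1-OE, 3 Ctrl) were used. Per the labels and the methods, poly(A) RNA was made into stranded paired-end libraries, and the authors aligned trimmed reads to GRCh38 with TopHat2. Uniquely mapped reads gave the deposited raw counts and the deposited FPKM. For counter, annotation and use of strand: not given in the sources used here. Groups and replicate numbers came from the sample titles.

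In R 4.3.3 with edgeR 4.0.16, genes passing filterByExpr (minimum count 10, minimum total 15) were scaled by TMM and fitted with a robust quasi-likelihood model over all 6 libraries, with the plasmid as the only term and Benjamini-Hochberg adjustment at 0.05 over 16971 genes. The fit was tested on simulated counts. log2 CPM used a prior count of 2. Sides are the signs of the first principal component. Coordinates and coding sequences came from GENCODE v44 (GRCh38) and starts from RefSeq (GRCh38.p14). Totals of 28131955 to 41009197 counts set the counting precision. Pairs of libraries within a group were compared by their chi-square per degree of freedom. It was 3.80 for the closest pair, Ctrl replicates 1 and 2, and 27.26 to 209.4 for the other pairs, so none of these was a duplicate. Pairs across the groups were not compared in this way.

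Genes named are APEX1, members called, the 10 highest and 5 lowest FPKM, the 5 largest changes in either direction, members whose groups do not overlap, the 5 widest ranges, members below the filter, the paralogs with their parents, members with a set role, and up to 3 genes of each list; others were named after their values were seen. Members, lists and the sides were chosen with earlier results of these data known. The coding GC measure, the level per coding length, the values within sides and the comparison with other abundant genes were added after seeing the data. Alternatives were other scalings, filters, DESeq2 1.42.0, limma 3.58.1, FPKM on a log2 scale with pseudocounts of 1 or 0.1, leaving out each library, the replicate number as a block, the side as a term, and offsets from a spline on GC content and length. No amino acid sequences were used here. Some genes that the rule names are not reported here.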

Additional observations from a re-analysis of the deposited data

How the results depend on the processing

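No ribosomal protein gene was called under any alternative run, and the median log2 fold change of the members, -0.12, moved by less than the spread between libraries (0.17) under all of them. That spread is larger than the median itself, so staying within it does not show that the median is stable. The median lay between -0.26 and -0.06 with 1 library left out. It came nearer to 0 with the side as a term (-0.055). With the side and the GC and length offset it was -0.013, and with the side and the coding offset -0.0046. The count of members above 0 was 4. It was 2 with limma-voom, 2 with the replicate block, 9 with a GC and length offset, 14 with the coding offset, 29 with the side as a term, 38 with the GC and length offset and the side, and 39 with the coding offset and the side, and it lay between 8 and 20 with 1 library left out. Members with an unadjusted p under 0.05, of which there were 0, came to 1 with the replicate block, 1 with either offset, 12 with the side, 7 with the GC and length offset and the side, 8 with the coding offset and the side, and 0 to 2 with 1 library left out (2 without APEX1-OE replicate 1). The share of all genes with such a p rose too: the members' share was 1.27% against 3.31% of all genes with the block, 1.27% against 3.45% and 2.23% with the GC and length and the coding offset, 15.2% against 11.6% with the side, 8.86% against 12.1% and 10.1% against 12.4% with the respective offset and the side, and 2.53% against 7.61% without APEX1-OE replicate 1. Over all genes 1 was called; this was 10 with no filter on low counts, 2 with the replicate block, 4 with the side, 22 with the GC and length offset and the side, 11 with the coding offset and the side, and 0 or 1 with 1 library left out (0 without APEX1-OE replicate 2 or 3 or Ctrl replicate 1 or 2). The causes were not tested. Deviations of libraries with the same replicate number correlated with r of 0.61, -0.52 and 0.70. Libraries of unlike number on the same side reached like values, 0.64 for APEX1-OE replicate 1 with Ctrl replicate 2 and 0.67 for APEX1-OE replicate 2 with Ctrl replicate 3. Whether libraries of the same number were prepared together cannot be told from these values. The share of counts and the ratio of the subunits moved from their reported differences by less than the spread between libraries in all alternatives, but the share difference itself (-0.87 percentage points) was larger than that spread (0.965) without APEX1-OE replicate 1 (-1.47) or Ctrl replicate 3 (-1.38), and in summed FPKM (-1.0 against 0.628). For the ratio too the spread (0.0413) was larger than the difference with all libraries in (0.00407). Staying within the spread therefore does not show that the share or the ratio is stable. The ratio difference lay between -0.0147 and 0.0298 with 1 library left out. Depth does not limit most members, but RPS10, with 170 to 241 counts, RPL17, RPL26 and RPL39L have few counts.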
